A study of Mus musculus with 16 samples.

Results

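The 9 ETS transcription factor genes Erg, Fli1, Spi1, Ets1, Ets2, Etv6, Elf1, Gabpa and Elk3 were followed in mouse fetal liver cells across 4 genotypes and 2 stages of gestation. Each gene was taken as the probe set that maps to its symbol alone, with the highest mean over the arrays where there were several; each of the 9 had 1 such probe set. They are 9 of the 19934 genes that the array names by a single symbol. All 9 lay above the dim level, 3.74 on the log2 scale, on 16 of 16 arrays.

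Total RNA was taken with Trizol from single-cell suspensions of fetal livers of embryos genotyped by PCR, labelled with biotin and hybridised to 16 arrays. ERG/GATA1s embryos carried an ERG transgene together with the GATA1s knock-in allele, WT/GATA1s embryos the knock-in allele alone, ERG Tg embryos the transgene alone, and WT embryos neither. Each genotype was collected at embryonic day 14.5 (E14.5) and at embryonic day 12.5 (E12.5), which gives 8 groups of 2 arrays, 1 labelled female and 1 labelled male, called the female and the male array of the group here. GATA1s is the short form of the transcription factor GATA1, made without the N-terminal activation domain, and the study set out to compare the genes that respond to ERG in the presence of either form. The promoter and species of the transgene, the number of GATA1s copies in females and whether an array held 1 embryo or a pool are not stated in the labels. It is also not known whether the Erg probe set binds transgene RNA. The p-values therefore measure only the spread between these samples.

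ETS factors share a DNA-binding domain that recognises a GGAA core, and in blood they often act beside GATA and RUNX factors. ERG and FLI1 maintain stem cells and megakaryocytes, PU.1 (the product of Spi1) directs myeloid and lymphoid differentiation, and ETV6 is a repressor needed by blood stem cells. ETS1 acts in lymphoid and endothelial cells, ETS2 is a target of growth factor signalling through MAP kinases, ELF1 acts in lymphoid, endothelial and early blood cells, GABPA is the DNA-binding subunit of GABP, which drives many housekeeping and mitochondrial genes, and ELK3 is a serum response factor partner found in endothelium. In the fetal liver, blood stem and progenitor cells, erythroid precursors and megakaryocytes lie among hepatoblasts.

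Promoter sequences are shown for 3 members that differed in the genotype comparisons below, because their promoters held unlike numbers of the motif that the family itself binds. Each window runs from 250 bases before to 50 bases after a transcription start, from RefSeq on GRCm38.p6. Of the 9 members 6 had an entry, while Fli1, Spi1 and Ets1 had none and could not be shown. Capitals mark GGAA on either strand (GGAA or TTCC) and AGATAA or TGATAA on either strand, the motif of GATA factors; no ETS and GATA match overlapped. The Etv6 window lies at chr6:134035450-134035749 on the plus strand, the Ets2 window at chr16:95702157-95702456 on the plus strand, and the Erg window at chr16:95459299-95459598 on the minus strand. Erg has 3 listed starts, and the third is shown because it alone held a GATA match.
Etv6: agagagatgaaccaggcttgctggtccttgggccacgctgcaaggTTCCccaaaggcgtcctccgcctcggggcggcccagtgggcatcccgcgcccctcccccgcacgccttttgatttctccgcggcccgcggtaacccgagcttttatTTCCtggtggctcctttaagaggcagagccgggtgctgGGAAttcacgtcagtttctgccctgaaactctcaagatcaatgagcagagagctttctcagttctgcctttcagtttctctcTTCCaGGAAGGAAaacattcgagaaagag
Ets2: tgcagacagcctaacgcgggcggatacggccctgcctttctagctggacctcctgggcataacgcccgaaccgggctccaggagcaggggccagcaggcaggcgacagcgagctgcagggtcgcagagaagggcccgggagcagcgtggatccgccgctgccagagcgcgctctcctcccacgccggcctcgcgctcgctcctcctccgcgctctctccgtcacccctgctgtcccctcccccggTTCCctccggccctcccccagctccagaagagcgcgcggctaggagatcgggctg
Erg: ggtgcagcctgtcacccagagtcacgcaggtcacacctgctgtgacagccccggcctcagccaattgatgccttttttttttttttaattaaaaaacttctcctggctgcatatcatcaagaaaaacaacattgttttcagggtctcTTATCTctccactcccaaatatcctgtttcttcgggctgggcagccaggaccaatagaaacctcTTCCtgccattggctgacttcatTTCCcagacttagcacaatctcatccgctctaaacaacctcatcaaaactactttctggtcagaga

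The Etv6 window held 6 ETS matches, the Ets2 window 1, and the Erg window 2 together with 1 GATA match, while the windows of the other Erg starts held 1 and 4 ETS matches and 0 GATA matches. Of 32851 windows of the same length, 96.0% held GGAA, with a median of 3 matches, and 18.6% held a GATA match, so these matches describe the letters and mark no site of binding. Gabpa, at chr16:84834874-84835173 on the plus strand, held 5 ETS matches, of which 1 belonged to the longer form CCGGAAG, found in 8.9% of windows.

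The values are log2 signals after RMA (robust multi-array average, which corrects background, equalises arrays and summarises probes), with array medians from 4.79 to 4.94. Correlations between the 2 arrays of a group ran from 0.9859 in E12.5 ERG/GATA1s livers to 0.9973 in E14.5 ERG Tg livers. On 3 arrays, Xist and the Y-linked genes were at levels opposite to the label: the female E14.5 ERG/GATA1s array and the male arrays of both GATA1s genotypes at E12.5. At E12.5 the 4 GATA1s arrays thus all had female-type markers, and at E14.5 both ERG/GATA1s arrays had male-type markers. Arrays of mixed type were the male E12.5 WT array, with Xist at 9.35 and a mean of 4.95 for the Y-linked genes, and the male E14.5 ERG Tg array, with 10.03 and 5.27. Xist ran from 9.51 to 11.52 and the Y-linked mean from 3.03 to 3.92 on the 9 arrays of female type, and Xist from 3.94 to 5.73 and the Y-linked mean from 5.61 to 6.5 on the 5 of male type. Labelled sex, a term of the tests and the key of the pairs below, is therefore uncertain for these arrays. Each member call below that does not hold without the 3 opposed arrays is named, and the mixed arrays are among those left out singly. Omitting the 3 leaves 1 array in each of the E14.5 ERG/GATA1s, E12.5 ERG/GATA1s and E12.5 WT/GATA1s groups. Whether calls were lost then through the labels or through the smaller groups was not tested.

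Spi1 varied most among the members, by 2.20 log2 units over the 16 arrays, with an SD of 0.64 that 4.5% of the measured genes exceeded. Etv6 followed with a range of 1.68 and an SD of 0.55, exceeded by 7.0% of genes, and Ets2 with a range of 1.64. Erg spanned 0.69 log2 units and Elk3 0.49, and 61.7% and 91.4% of genes varied more than these. Signals of different probe sets are not comparable as amounts, so each gene was set only against itself.

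Erg was highest on average in E12.5 ERG/GATA1s livers, at 6.01 and 5.90 on the arrays labelled female and male, and lowest in E12.5 WT livers, at 5.51 and 5.35. The other groups lay between: 5.80 and 5.66 in E14.5 ERG/GATA1s, 5.32 and 5.55 in E14.5 WT/GATA1s, 5.88 and 5.58 in E14.5 ERG Tg, 5.41 and 5.53 in E14.5 WT, 5.69 and 5.80 in E12.5 WT/GATA1s, and 5.58 and 5.63 in E12.5 ERG Tg. No pair of neighbours in this order differed by more than 2 standard errors (SE) of a difference between groups, which was 0.14, and the arrays of the E14.5 ERG Tg group alone covered 0.30.

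Fli1 had 7.36 and 7.31 in E14.5 ERG/GATA1s livers, 7.01 and 7.46 in WT/GATA1s, 6.37 and 6.46 in ERG Tg and 6.87 and 6.97 in WT. At E12.5 it had 7.64 and 7.29 in ERG/GATA1s livers, 7.36 and 7.52 in WT/GATA1s, 7.02 and 7.18 in ERG Tg and 7.12 and 6.74 in WT. At E14.5 every array with the GATA1s allele lay above every array without it, and the ERG Tg arrays lay lowest of the 16; the mean of that group, 6.42, was separated from the next, E14.5 WT at 6.92, by more than 2 SE of 0.18.

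Spi1 had 7.77 and 7.64 in E14.5 ERG/GATA1s livers, 6.92 and 7.72 in WT/GATA1s, 6.56 and 6.86 in ERG Tg and 7.26 and 7.23 in WT. At E12.5 it had 8.76 and 8.5 in ERG/GATA1s livers, 8.36 and 8.5 in WT/GATA1s, 7.88 and 7.83 in ERG Tg and 8.12 and 7.96 in WT. All 8 E14.5 arrays were below all 8 E12.5 arrays, and E14.5 ERG Tg, with a mean of 6.71, lay 0.54 below E14.5 WT, a gap of more than 2 SE of 0.21.

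Etv6 had 7.26 and 7.33 in E14.5 ERG/GATA1s livers, 6.45 and 7.05 in WT/GATA1s, 6.77 and 6.71 in ERG Tg and 6.58 and 6.54 in WT. At E12.5 it had 8.13 and 7.70 in ERG/GATA1s livers, 7.95 and 8.05 in WT/GATA1s, 7.32 and 7.59 in ERG Tg and 7.61 and 7.18 in WT. The E12.5 arrays with the GATA1s allele were the highest 4 of the 16, and the 2 WT/GATA1s arrays at E14.5 lay far apart, the first at the lowest and the second at the third highest level of the stage.

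**Figure D1:**
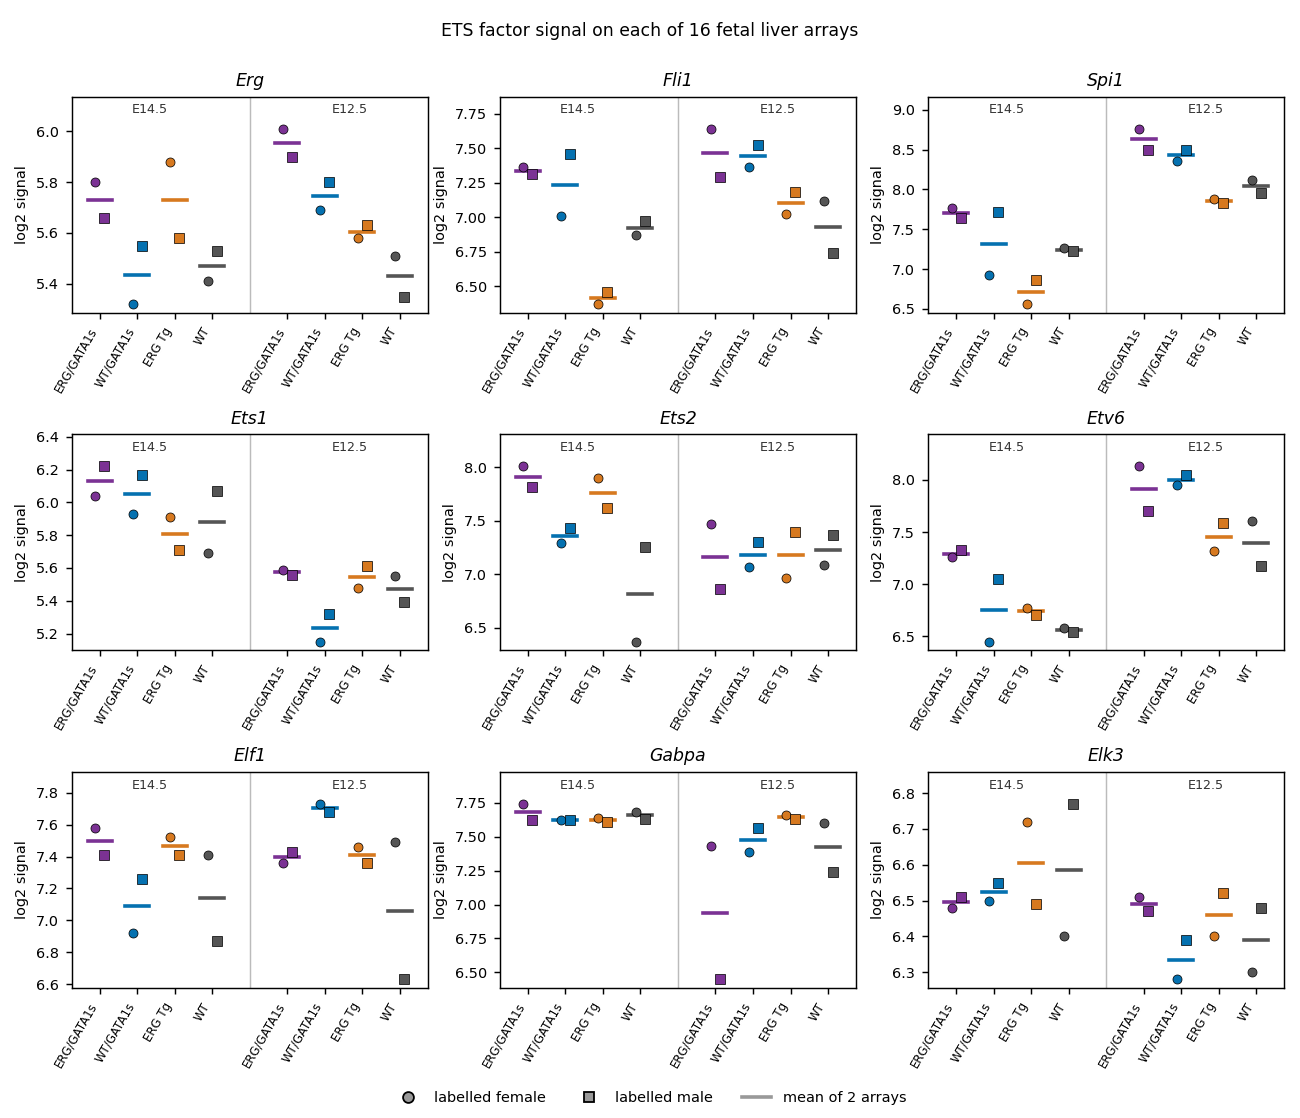
Log2 RMA signal (vertical axis) of each of the 9 ETS genes, 1 panel a gene, on the 2 arrays of each of the 8 stage and genotype groups (horizontal axis), with bars at the group means. All 8 E14.5 arrays of Spi1 lie below all 8 E12.5 arrays, those of Ets1 lie above, and the 2 points of E12.5 ERG/GATA1s stand apart for Gabpa, at 7.43 and 6.45.

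The GATA1s allele is present in ERG/GATA1s and WT/GATA1s livers and absent from ERG Tg and WT livers. Across both stages Fli1, Spi1 and Etv6 were higher in carriers, by 1.44-fold, 1.47-fold and 1.37-fold. Fli1 averaged 7.37 in the 8 carrier arrays and 6.84 in the 8 non-carrier arrays, a log2 difference of 0.53 ± 0.09 (SE; adjusted p = 0.00143), and was higher in 8 of 8 pairs of arrays matched for stage, labelled sex and ERG transgene. Spi1 averaged 8.02 and 7.46, a difference of 0.56 ± 0.10 (adjusted p = 0.00239; 7 of 8 pairs), and Etv6 averaged 7.49 and 7.04, a difference of 0.45 ± 0.10 (adjusted p = 0.00849; 7 of 8 pairs). The p-values are from limma, with 1 mean per group and a term for labelled sex, adjusted by the Benjamini-Hochberg method over all 16258 probe sets tested, and a gene is said to change where the adjusted p is below 0.05. In this comparison 18.1% of all probe sets passed, 6.78% higher and 11.3% lower in carriers, against 3 of the 9 members, all higher; the median difference was 0.16 over the members and 0.01 over all probe sets. Leaving out any of the 16 arrays in turn left these 3 calls in place, with the highest adjusted p at 0.0268, for Etv6.

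The other 6 members did not pass over both stages. Erg had a difference of 0.16 ± 0.07 (adjusted p = 0.153; higher in 6 of 8 pairs), Ets2 0.16 (adjusted p = 0.433), Elf1 0.15 (adjusted p = 0.365), Ets1 0.07 (adjusted p = 0.553) and Elk3 -0.05 (adjusted p = 0.674). Gabpa had a difference of -0.16 ± 0.11 (adjusted p = 0.337). Without the female E12.5 ERG/GATA1s array the Gabpa difference was -0.27. That omission leaves the male array, the lowest of the 16 at 6.45, alone in its group.

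Within stages, comparisons chosen after the values had been seen, the same genes led. At E14.5 Fli1 was higher in carriers by 0.62 ± 0.13 (adjusted p = 0.00653), with no overlap between 4 arrays of each kind, where 5.86% of all probe sets were higher without overlap, 13.4% passed the test and 5.87% passed it as higher. Spi1 was higher by 0.54 ± 0.15 (adjusted p = 0.0273) with overlapping arrays; this call was lost in 5 of the 16 single-array omissions, with an adjusted p up to 0.118, and without the 3 arrays of opposed sex markers. Etv6, at 0.37, did not pass (adjusted p = 0.113), and Erg did not differ beyond its error (-0.02; adjusted p = 0.954).

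At E12.5 Spi1 was higher in carriers by 0.58 ± 0.15 (adjusted p = 0.0305) and Etv6 by 0.53 ± 0.15 (adjusted p = 0.045), against 6.35% of all probe sets passing and 2.87% higher. Fli1, at 0.44 ± 0.13 (adjusted p = 0.0569), and Erg, at 0.33 ± 0.10 (adjusted p = 0.0693), missed the threshold. All 4 genes were higher without overlap of the 4 carrier and 4 non-carrier arrays, as were 4.98% of all probe sets. Neither E12.5 call held without the 3 arrays of opposed sex markers, and single-array omissions took away the Spi1 call 6 times, up to an adjusted p of 0.124, and the Etv6 call 10 times, up to 0.19.

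Levels of other cell types' markers moved with the GATA1s allele too. The mean level of 10 neutrophil marker genes was 7.33 to 8.43 in E14.5 carriers against 6.40 to 8.01 in non-carriers. At E12.5 it was 8.23 to 8.54 against 7.31 to 8.02. Of the 10 genes 9 rose over both stages, against 6.78% of all probe sets. Genes of immediate-early and cell-handling responses had mean levels of 6.72 to 7.19 against 5.39 to 5.93 at E14.5 and 7.85 to 8.08 against 7.02 to 7.60 at E12.5, with 10 of 11 higher over both stages, against the same 6.78%. Hepatocyte markers were 10.48 to 11.05 against 10.14 to 10.91 at E14.5 and 8.37 to 8.61 against 9.12 to 9.66 at E12.5, where all 10 fell against 3.48% of all probe sets lower, while 0 of 9 macrophage markers passed over both stages. Erythroid markers, high on every array as hepatocyte markers are, lay at 9.19 to 10.12 in E14.5 carriers against 10.11 to 10.66 in non-carriers, with 6 of 8 lower over both stages, against 11.3% of all probe sets. Their part in the Fli1, Spi1 and Etv6 differences was not tested. In such bulk samples more cells of a type and more RNA per cell cannot be told apart.

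The doubly modified livers were next set against WT livers, over both stages. Erg, Fli1, Spi1 and Etv6 were higher in ERG/GATA1s livers, each in 4 of 4 pairs matched for stage and labelled sex. Erg differed by 0.39 ± 0.10 (1.31-fold; adjusted p = 0.0252), Fli1 by 0.48 ± 0.13 (1.39-fold; adjusted p = 0.0287), Spi1 by 0.53 ± 0.15 (1.44-fold; adjusted p = 0.0343) and Etv6 by 0.63 ± 0.15 (1.54-fold; adjusted p = 0.0148). For Erg and Fli1 the 4 ERG/GATA1s arrays lay wholly above the 4 WT arrays, as they did for 2.25% of all probe sets. Of all probe sets 10.6% passed, 4.06% higher, against 4 of 9 members. Marker lists moved in the same comparison: at E14.5 the handling genes averaged 7.14 to 7.19 in ERG/GATA1s livers against 5.39 to 5.83 in WT, the neutrophil markers 8.02 to 8.43 against 7.21 to 8.01 and the erythroid markers 9.19 to 9.54 against 10.28 to 10.66. Over both stages 10 of 11 handling genes and 4 of 10 neutrophil markers were higher and 8 of 8 erythroid markers lower, where 6.52% of all probe sets were lower. The part of these levels in the member differences was not tested.

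These 4 calls rested on the whole set of arrays. Omitting the 3 arrays of opposed sex markers leaves 1 ERG/GATA1s array at each stage. Single omissions lost the Erg call 4 times (adjusted p up to 0.118), Fli1 5 times (0.147), Spi1 9 times (0.147) and Etv6 3 times (0.0851), and without the 3 arrays of opposed sex markers the adjusted p-values were 0.175, 0.117, 0.182 and 0.0848. Ets2 had 0.52 ± 0.18 (adjusted p = 0.0925), with a range of 0.295 to 0.74 over single omissions. It was 0.72 without the male E12.5 ERG/GATA1s array and 0.74 without the male E14.5 WT array. The latter omission leaves the female E14.5 WT array, the lowest of the 16 at 6.37, alone in its group. Elf1 had 0.35 (adjusted p = 0.181), and 0.54 without the female E12.5 WT array. The male E12.5 WT array, the lowest of the 16 for Elf1 at 6.63, is then alone in its group. Gabpa had -0.23 (adjusted p = 0.387), and -0.46 without the female E12.5 ERG/GATA1s array. That omission leaves the male array, at 6.45, alone in its group. Ets1 and Elk3, at 0.18 and 0.01, had adjusted p-values of 0.339 and 0.982.

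At E14.5 alone, Ets2 and Etv6 were higher in ERG/GATA1s than in WT livers. Ets2 had 8.01 and 7.82 in ERG/GATA1s livers, 7.29 and 7.43 in WT/GATA1s, 7.90 and 7.62 in ERG Tg and 6.37 and 7.26 in WT. Both arrays of each ERG-carrying group were above all other arrays of the stage, and the WT arrays were 0.89 apart. The share of all probe sets separated in this way was not counted. The difference between ERG/GATA1s and WT was 1.10 ± 0.26 (2.14-fold; adjusted p = 0.0169), where 9.16% of all probe sets passed, 4.47% higher; it ranged from 0.66 to 1.54 over the omissions of single arrays and lost its call without the female E14.5 WT array (adjusted p = 0.205) or the female E14.5 ERG/GATA1s array (adjusted p = 0.185). Etv6 differed by 0.74 ± 0.21 (adjusted p = 0.0394), a call lost in 8 omissions, up to an adjusted p of 0.201. Without the 3 arrays of opposed sex markers the Ets2 and Etv6 p-values were 0.181 and 0.215. At E12.5, where Ets2 had 7.47 and 6.86 in ERG/GATA1s and 7.09 and 7.37 in WT livers, no member passed, and neither did more than 1 probe set in all (0.00615%); the lowest member p was that of Erg, at 0.53 ± 0.14 (adjusted p = 0.171).

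Against the ERG transgene alone, a comparison also chosen after the values had been seen, ERG/GATA1s livers had higher Fli1, Spi1 and Etv6 over both stages. Spi1 differed by 0.89 ± 0.15 (1.85-fold; adjusted p = 0.00252), Fli1 by 0.64 ± 0.13 (1.56-fold; adjusted p = 0.0071) and Etv6 by 0.51 ± 0.15 (1.42-fold; adjusted p = 0.0451), each in 4 of 4 pairs, against 9.02% of all probe sets passing and 4.02% higher. The Fli1 arrays did not overlap, as 2.73% of probe sets did not in this direction. The Fli1 and Spi1 calls held in every single-array omission, up to an adjusted p of 0.0408 and 0.0188, but not without the 3 arrays of opposed sex markers (0.0606 and 0.0514), and Etv6 lost its call in 9 omissions, up to 0.175, and without those 3 arrays (0.154).

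At E14.5 the ERG/GATA1s minus ERG Tg differences were 0.995 ± 0.21 for Spi1 (1.99-fold; adjusted p = 0.0102) and 0.92 ± 0.18 for Fli1 (1.89-fold; adjusted p = 0.00716), with 7.34% of probe sets passing, 3.6% higher. The Spi1 call was lost in 2 omissions (adjusted p up to 0.122), the Fli1 call in 4 (up to 0.0762), and both without the 3 arrays of opposed sex markers. In the same E14.5 livers the neutrophil marker mean was 8.02 to 8.43 in ERG/GATA1s against 6.40 to 6.58 in ERG Tg, with 8 of 10 higher, and the handling mean 7.14 to 7.19 against 5.81 to 5.93, with 7 of 11 higher; their part in the Spi1 and Fli1 differences was not tested. At E12.5, where 1.05% passed, no member did; Spi1 had 0.78 ± 0.21 (adjusted p = 0.0813) and Gabpa -0.71 (adjusted p = 0.117).

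Neither single modification gave a member that passed against WT. In WT/GATA1s livers over both stages, Fli1 had a difference of 0.41 ± 0.13 (adjusted p = 0.0878; 4 of 4 pairs), Etv6 0.40 (adjusted p = 0.155) and Spi1 0.23 (adjusted p = 0.442), with 3.81% of all probe sets passing, 1.07% at E14.5 and 1.33% at E12.5. In ERG Tg livers, with 0.283% passing, Erg had 0.22 ± 0.10 (adjusted p = 0.655; 4 of 4 pairs), Ets2 0.45 (adjusted p = 0.526), Fli1 -0.17 (adjusted p = 0.964) and Spi1 -0.36 ± 0.15 (adjusted p = 0.511; lower in 4 of 4 pairs). These comparisons and those with ERG/GATA1s share the WT arrays.

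At E14.5 the ERG Tg minus WT differences were 0.95 ± 0.26 for Ets2 (adjusted p = 0.101), -0.51 ± 0.18 for Fli1 (adjusted p = 0.272) and -0.54 ± 0.21 for Spi1 (adjusted p = 0.339), with 1.69% of probe sets passing. Over single-array omissions the Ets2 difference ranged from 0.50 to 1.39. The 1.39 came without the male E14.5 WT array, which leaves the female array, the lowest of the 16 at 6.37, alone in its group. The neutrophil marker mean was 6.40 to 6.58 in E14.5 ERG Tg livers against 7.21 to 8.01 in WT, and its part in the Fli1 and Spi1 values was not tested. At E12.5 limma called no probe set between ERG Tg and WT, and 666 had an unadjusted p below 0.05.

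Taking all ERG carriers against all non-carriers, Erg itself was higher in 8 of 8 pairs, by 0.24 ± 0.07, but did not pass (adjusted p = 0.165), where 1.25% of probe sets did. Ets2 had 0.36 ± 0.13 (adjusted p = 0.279; 6 of 8 pairs), Spi1 -0.03 and Fli1 -0.05. The interaction of ERG with GATA1s, which asks whether the transgene's difference is larger with the short form, reached 0.65 ± 0.21 for Spi1 (adjusted p = 0.852) and 0.23 for Fli1 over both stages, where 0.0123% of probe sets passed. At E14.5 it was 0.92 ± 0.29 for Spi1 (adjusted p = 0.551) and 0.61 for Fli1 (adjusted p = 0.909), with 0.0984% passing. Without the male E14.5 WT/GATA1s array the Spi1 value was 1.33, with the female array, at 6.92, alone in its group.

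**Figure D2:**
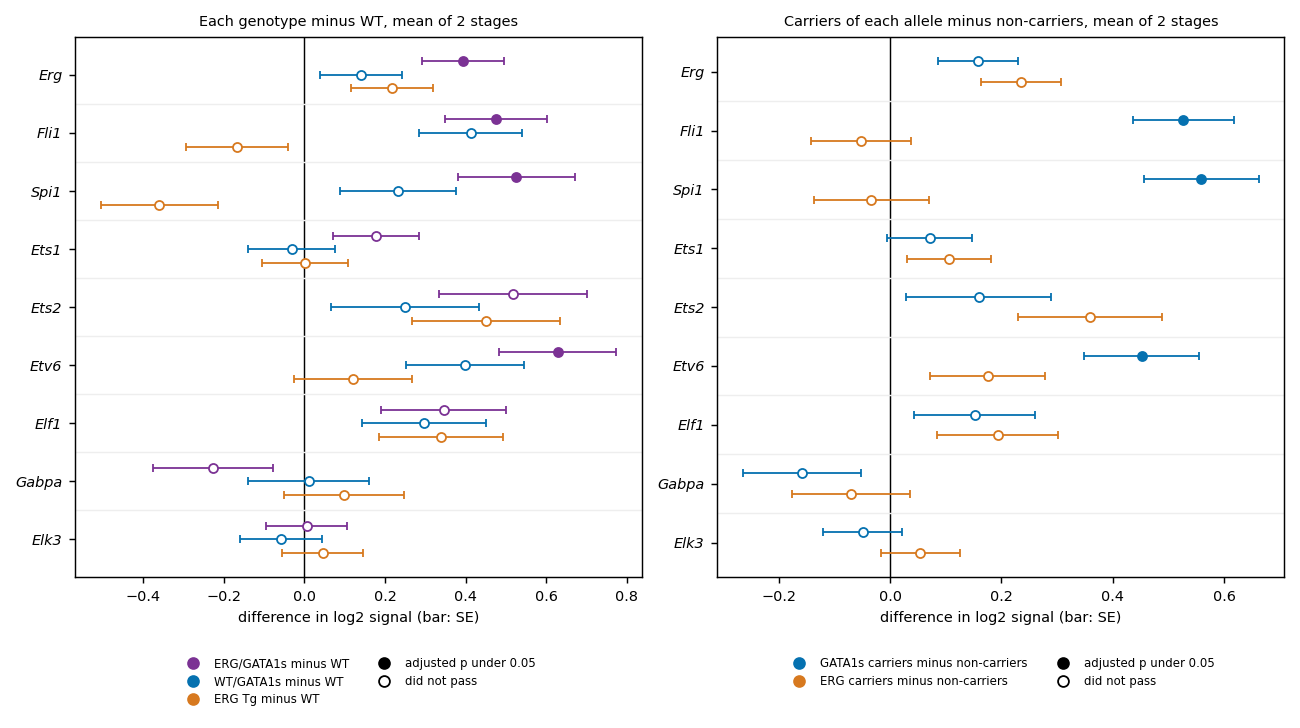
Log2 differences of the 9 ETS genes, with SE bars from limma, between the genotypes named in each panel, over both stages; filled points passed an adjusted p of 0.05. Fli1, Spi1 and Etv6 pass in GATA1s carriers against non-carriers, and Erg joins them in ERG/GATA1s against WT, where its difference is 0.39.

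Stage was compared next. Between E14.5 and E12.5, averaged over the 4 genotypes, Spi1, Etv6 and Fli1 fell and Ets1 and Gabpa rose, against 56.2% of all probe sets passing, 29% higher and 27.2% lower, so 5 of 9 members is near the background. Spi1 averaged 7.25 at E14.5 and 8.24 at E12.5, and fell by 0.99 ± 0.10 on the log2 scale (1.99-fold; adjusted p = 3.62e-06), lower in 8 of 8 pairs and without overlap, as 4.93% of probe sets were. Etv6 averaged 6.84 and 7.69 and fell by 0.85 ± 0.10 (1.81-fold; adjusted p = 1.44e-05), lower in 8 of 8 pairs. Fli1 averaged 6.98 and 7.23 and fell by 0.26 ± 0.09 (adjusted p = 0.0257), lower in 6 of 8 pairs.

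Ets1 ran the other way. It had 6.04 and 6.22 in E14.5 ERG/GATA1s livers, 5.93 and 6.17 in WT/GATA1s, 5.91 and 5.71 in ERG Tg and 5.69 and 6.07 in WT, and at E12.5 5.59 and 5.56 in ERG/GATA1s, 5.15 and 5.32 in WT/GATA1s, 5.48 and 5.61 in ERG Tg and 5.55 and 5.39 in WT. All E14.5 arrays were above all E12.5 arrays, as for 8.32% of probe sets, and the difference was 0.51 ± 0.08 (1.42-fold; adjusted p = 8.38e-05; 8 of 8 pairs). The Spi1, Etv6 and Ets1 calls held in all 16 single-array omissions.

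Gabpa had 7.43 and 6.45 in E12.5 ERG/GATA1s livers, and its other 14 arrays lay between 7.24 and 7.74. Its stage difference of 0.28 ± 0.11 (adjusted p = 0.0402) was lost in 11 omissions, up to an adjusted p of 0.114, and without the 3 arrays of opposed sex markers (0.0728), and that of Fli1 in 7, up to 0.0748. The male E12.5 ERG/GATA1s array, which gave the 6.45, also had the smallest SD over all probe sets with a symbol. This SD was 2.01, against 2.12 to 2.26 on the other arrays. Ets2 had a stage difference of 0.27 ± 0.13 (adjusted p = 0.0883), Elk3 0.13 (adjusted p = 0.12), Erg -0.09 (adjusted p = 0.28) and Elf1 -0.10 (adjusted p = 0.464).

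Within genotypes, the E14.5 minus E12.5 difference of Spi1 was -0.93 in ERG/GATA1s (adjusted p = 0.0069), -1.11 in WT/GATA1s (adjusted p = 0.00162), -1.15 in ERG Tg (adjusted p = 0.00222) and -0.80 in WT livers (adjusted p = 0.017). Etv6 also fell in each: by 0.62 in ERG/GATA1s (adjusted p = 0.0458), 1.25 in WT/GATA1s (adjusted p = 0.000661), 0.72 in ERG Tg (adjusted p = 0.0285) and 0.84 in WT (adjusted p = 0.0134). Of all probe sets 21.9% passed in ERG/GATA1s, 22.5% in WT/GATA1s, 17.6% in ERG Tg and 18.2% in WT livers. Ets1 rose by 0.56 in ERG/GATA1s (adjusted p = 0.0198) and 0.82 in WT/GATA1s (adjusted p = 0.00164), with 0.27 in ERG Tg (adjusted p = 0.252) and 0.41 in WT (adjusted p = 0.0766). The calls in WT/GATA1s held in every single-array omission, as did that of Spi1 in ERG Tg. The calls in ERG/GATA1s, Gabpa's below included, were all lost without the 3 arrays of opposed sex markers, where the adjusted p was 0.0811 for Spi1 and 0.26 for Ets1. Single omissions took away the other calls in ERG/GATA1s (adjusted p up to 0.0888 for Spi1, 0.16 for Ets1 and 0.227 for Etv6), in ERG Tg (0.254 for Etv6) and in WT (0.117 for Spi1 and 0.133 for Etv6).

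The remaining calls within a genotype were that of Fli1, which fell by 0.69 in ERG Tg livers (adjusted p = 0.0177; up to 0.161 over omissions), and that of Gabpa, 0.74 in ERG/GATA1s livers (adjusted p = 0.025), which without the low array had an adjusted p of 0.299. Ets2 had 0.75 in ERG/GATA1s (adjusted p = 0.0535), 0.18 in WT/GATA1s, 0.58 in ERG Tg and -0.42 in WT. The test of the stage difference itself between genotypes, an F test over the 3 interaction terms, passed for no member, with the lowest adjusted p at 0.28 for Ets2; it passed for 2.42% of probe sets, and 2342 had an unadjusted p below 0.05.

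**Figure D3:**
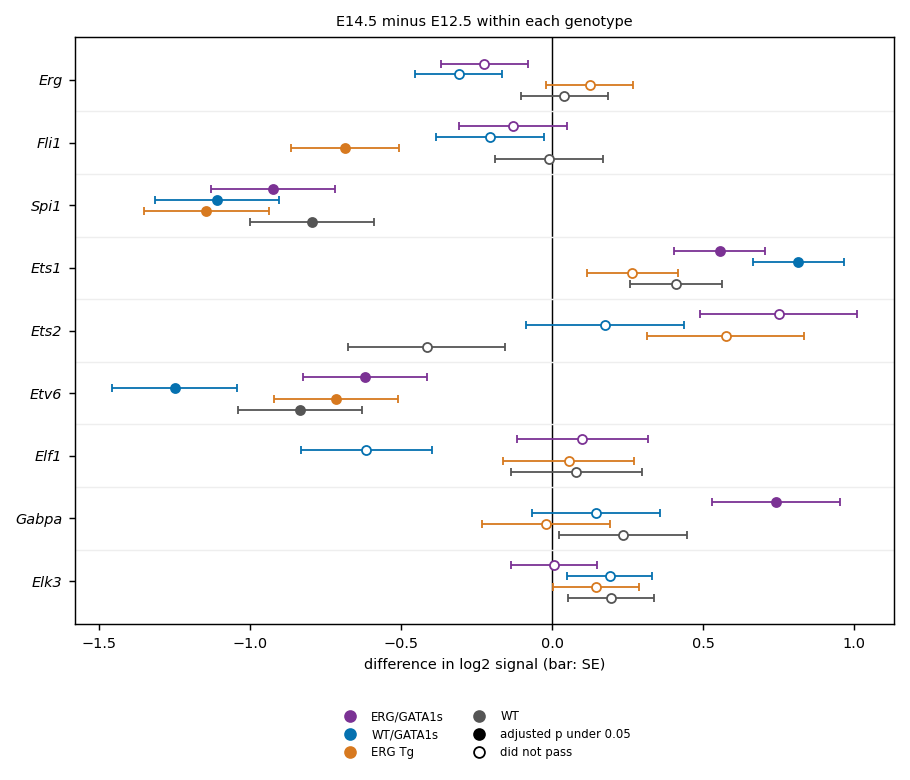
Log2 differences between E14.5 and E12.5 of the 9 ETS genes in each of the 4 genotypes, with SE bars from limma; filled points passed an adjusted p of 0.05. Spi1 and Etv6 lie below 0 and Ets1 above 0 in all 4 genotypes.

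Marker levels also changed with stage. The mean level of 10 hepatocyte markers was 10.14 to 11.05 at E14.5 against 8.37 to 9.66 at E12.5. That of 10 macrophage markers, with Vsig4 dim on all arrays, was 6.11 to 6.75 against 5.08 to 5.43. Endothelial markers lay at 6.57 to 6.99 against 6.10 to 6.40, and mesenchymal markers at 6.36 to 7.06 against 5.75 to 6.46. The immediate-early and handling genes were lower at E14.5, at 5.39 to 7.19 against 7.02 to 8.08, with 11 of 11 falling, against 27.2% of all probe sets lower. Neutrophil markers averaged 6.40 to 8.43 against 7.31 to 8.54, with 8 of 10 lower and Ctsg higher. The mean of 10 markers of mast cells, basophils and eosinophils was 4.41 to 5.23 against 5.25 to 5.46. Mcpt8, Fcer1a and Ms4a2 of this list were dim on all arrays, and 5 of the 7 tested were lower. Over the 16 arrays, which share stage and genotype, Ets1 correlated at r = 0.91 with the mesenchymal mean and 0.90 with the endothelial mean. Its r was 0.86 with the macrophage mean and 0.85 with the hepatocyte mean. Spi1 correlated at 0.88 with the handling mean, 0.84 with the neutrophil mean and 0.81 with the mast cell, basophil and eosinophil mean. Its r was -0.79 with the hepatocyte mean, -0.73 with the macrophage mean, -0.69 with the endothelial mean and -0.66 with the mesenchymal mean. Etv6 correlated at 0.89 with the handling mean, -0.85 with the hepatocyte mean and -0.83 with the macrophage mean, and Fli1 at 0.87 with the neutrophil mean. The part of these marker levels in the stage differences was not tested. B-lymphoid markers lay near the dim level, between 3.89 and 4.31, with Cd79a and Blnk dim on all arrays.

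**Figure D4:**
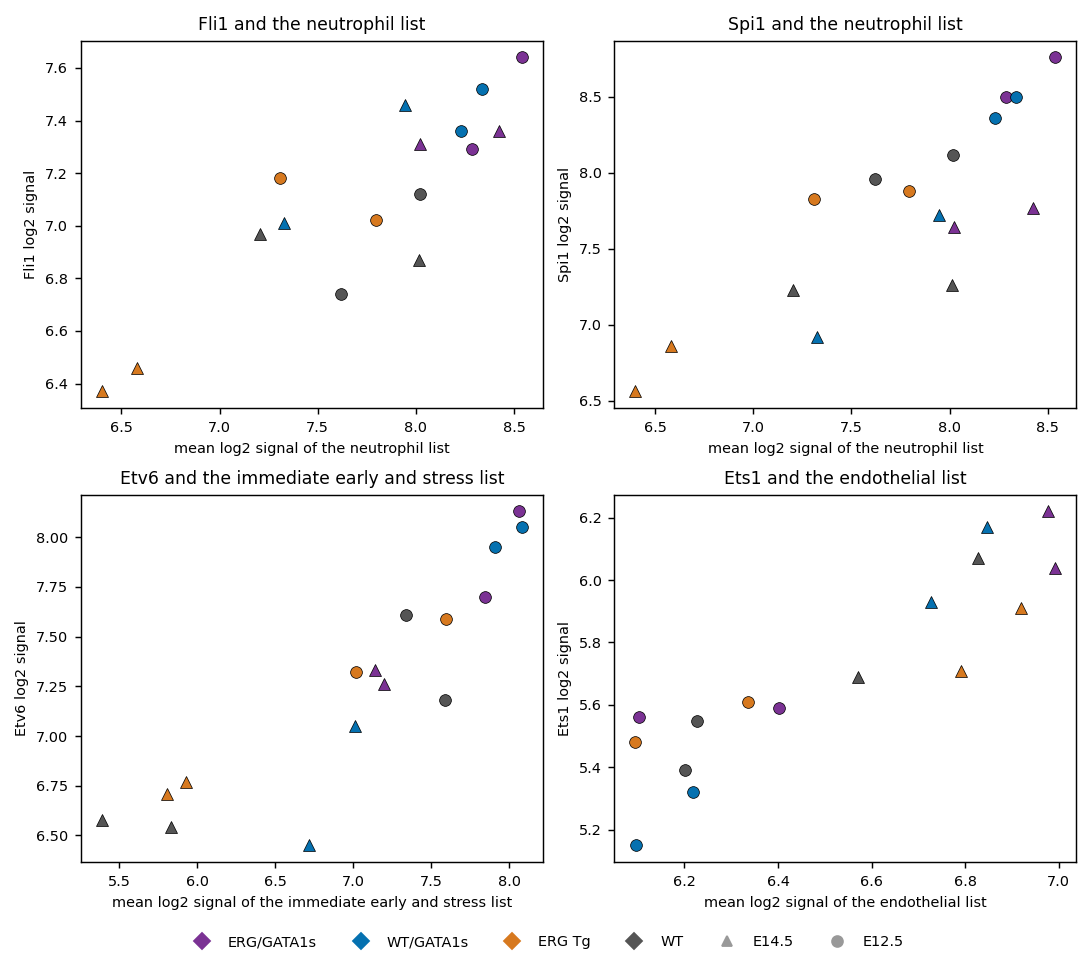
Log2 signal of Fli1 and Spi1 against the neutrophil mean, of Etv6 against the mean of the immediate-early and handling genes, and of Ets1 against the endothelial mean (vertical against horizontal axes, log2 units), 1 point an array, with pairs chosen after their values were seen. Fli1 with the neutrophil mean has r = 0.87 over the 16 arrays and Ets1 with the endothelial mean r = 0.90.

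Of 15 other ETS genes that passed the filter, of 17 listed, only Elf4, an activator in lymphoid and natural killer cells, was higher in GATA1s carriers. Its difference was 0.39 ± 0.08 (adjusted p = 0.00457, 8 of 8 pairs). With 6.78% of all probe sets higher in carriers, 1 of 15 is near the background. Elf4 was also higher in ERG/GATA1s against WT, by 0.58 (adjusted p = 0.00558), where 4.06% of all probe sets were higher. That call was lost without the 3 arrays of opposed sex markers. By stage 10 of the 15 passed, against 56.2% of all probe sets, so the count is near the background; the calls of Spic, Elf4, Etv3, Etv2 and Spdef held in every single-array omission. Spic, a factor of red pulp macrophages, rose by 1.58 ± 0.09 at E14.5 (adjusted p = 2.48e-08), and Etv3 (0.32), Elf3 (0.30), Elk4 (0.24) and Elf2 (0.18) rose with it. Elf4 fell by 1.16 ± 0.08 (adjusted p = 1.12e-07), and Spdef (-0.36), Etv2 (-0.31), Etv4 (-0.26) and Elk1 (-0.21) fell.

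Genes for partners of ETS factors moved in both directions with GATA1s, 4 of 14 tested as higher and 5 as lower in carriers, where 6.78% of all probe sets were higher and 11.3% lower. Runx1, which binds beside ETS factors in blood progenitors, was higher in carriers by 0.57 ± 0.09 (adjusted p = 0.00102; 8 of 8 pairs), Gata2 by 0.63 ± 0.11 (adjusted p = 0.00224; 7 of 8 pairs), Cebpa, a myeloid factor, by 0.33 (adjusted p = 0.0347) and Irf8, a PU.1 partner, by 0.29 (adjusted p = 0.00937). Lmo2, a bridging protein of the erythroid GATA1 complex, fell by 0.62 ± 0.07 (adjusted p = 8.35e-05; lower in 8 of 8 pairs). Also lower were Gabpb2, which encodes a partner subunit of GABPA, by -0.43 (adjusted p = 0.00337), Zfpm1, the GATA1 cofactor FOG1, by -0.42 (adjusted p = 0.00509), Ldb1 by -0.31 (adjusted p = 0.00521) and Tal1 by -0.29 (adjusted p = 0.0288). Gata1 itself had 0.01 (adjusted p = 0.941). The Cebpa and Tal1 calls were lost when single arrays were left out. In ERG carriers Gata2 alone of the partners passed, at 0.97 ± 0.11 (adjusted p = 0.0018; 5 of 8 pairs), and not without the 3 arrays of opposed sex markers.

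By stage Runx1 fell with Spi1 and Etv6, by 0.88 (adjusted p = 3.91e-06), and Srf, the partner of ELK factors, by 0.77 (adjusted p = 1.99e-06). Zfpm1 (-0.49), Gata2 (-0.43), Ldb1 (-0.41), Tal1 (-0.36) and Gata1 (-0.26) were also lower at E14.5, and Gabpb2 (0.54), Cebpa (0.35) and Lmo2 (0.21) higher. These are 10 of 14 partners, against 56.2% of all probe sets passing by stage, and the Gata1 and Lmo2 calls were lost in single-array omissions.

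Known target genes were read beside their regulators, in lists chosen with results of these arrays known and so no independent evidence. The PU.1 target list shares Elane, Ctsg and Mpo with the neutrophil markers above, so these genes enter both. Of 7 platelet and megakaryocyte genes tested, of 12 listed, 6 were higher in GATA1s carriers, against 6.78% of all probe sets, among them Pf4, a platelet chemokine, by 1.25 (adjusted p = 9.14e-06), Itga2b, a subunit of the fibrinogen receptor, by 1.24 (adjusted p = 9.09e-06) and Gp9, part of the von Willebrand factor receptor, by 1.17 (adjusted p = 8.43e-05). Of 15 PU.1 target genes 8 were higher in carriers, against the same 6.78%, led by the neutrophil granule proteases and lysozyme: Ctsg by 0.81 (adjusted p = 0.00242), Lyz2 by 0.60 (adjusted p = 0.00127) and Elane by 0.59 (adjusted p = 0.00239). In E14.5 ERG Tg livers against WT, 5 of the 15 fell, with Ctsg at -1.51, Elane at -1.30 and Mpo at -1.27, where 0.504% of all probe sets were lower, beside the Spi1 difference of -0.54 that did not pass. None of these 5 calls (0 of 5) held in every single-array omission, and the count of PU.1 targets called ranged from 0 to 6 over the omissions and from 0 to 5 over the alternatives.

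The genes whose levels ran most like those of a member were taken from 15733 others with 1 symbol, by Pearson correlation over the 16 arrays. Spi1 was most like Plcb2 (r = 0.98), Cyfip2 (0.98) and Adgrg3 (0.97), and Fli1 like Stat4 (0.96), Med12l (0.96) and Il6ra (0.95). Etv6 ran with Fmnl1 (0.97), with Runx1 (0.97; 0.92 within E14.5 and 0.95 within E12.5) and with the ETS gene Elf4 (0.95; 0.95 and 0.81). Ets1 ran with Tspan12 (0.95), Arid5b (0.95) and Septin10 (0.95). The number of genes with r above 0.9 was 83 for Spi1, 77 for Ets1, 54 for Etv6, 36 for Gabpa, 30 for Fli1, 2 for Elf1, 1 for Ets2, 1 for Elk3 and 0 for Erg.

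Erg was most like AA388235 (0.81), Cap2 (0.81) and Klhl38 (0.80), Elk3 like Pcdh18 (0.91), Lix1l (0.89) and Farp2 (0.88), Ets2 like Rnf114 (0.92), Cope (0.90) and Tbrg1 (0.89), and Elf1 like Ptpn12 (0.93), Samsn1 (0.92) and Fut8 (0.86). Gabpa had r of 0.96 with Cdc73, 0.95 with Ankib1 and 0.94 with Hipk3, which became 0.83, 0.86 and 0.71 over the 15 arrays without its low array. Among the members, Spi1 and Etv6 correlated at 0.91 over the 16 arrays, 0.71 within E14.5 and 0.85 within E12.5. Fli1 and Spi1 correlated at 0.79, with 0.93 and 0.83 within the stages, and Erg and Fli1 at 0.37, with -0.14 within E14.5 and 0.90 within E12.5. These values describe 16 arrays, whose stage and genotype differences enter every correlation over all of them.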

How the data were processed

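RNA of 16 fetal liver samples was measured on Affymetrix arrays with a whole-transcript labelling kit, per the labels' protocols. The values are log2 signals that the authors deposited after RMA, per the submitters' processing notes, with 2 decimals and a range of 1.96 to 13.32 over 28270 probe sets; no scan data were used here. Symbols came from the platform annotation: 21780 probe sets had 1 symbol, 1617 several and 4873 none. Groups were read from the titles, and the replicates are the arrays labelled female (replicate 1) and male (replicate 2); the number of arrays, 2 a group, limits the precision.

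For each symbol the probe set with the highest mean was kept, and 16258 probe sets were tested, those that exceeded the 30th percentile of the whole table (3.74) on 2 or more arrays. limma 3.58.1 in R 4.3.3 was fitted to the log2 values of all 16 arrays with 1 mean per group and labelled sex, followed by eBayes and Benjamini-Hochberg adjustment over all 16258; figures were drawn with matplotlib 3.10.9. Pairs are arrays of equal labelled sex. Genotype comparisons pair arrays of the same stage, and carrier comparisons also those of the same status for the other allele. Stage comparisons pair E14.5 with E12.5 arrays of the same genotype. In no group did the 2 arrays hold identical values. Correlations are descriptions without p-values.

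The members, lists and tests were chosen with earlier results of these data known. The text names the 9 members, genes of the lists of other ETS factors and of ETS partners that passed, the 3 genes most correlated with each member, and up to 3 passing genes with the largest change from the platelet and PU.1 target lists. Alternatives were no filter, a stricter filter (50th percentile, 4.84), a further quantile normalization, median centring and no sex term. Others were only the arrays compared, array weights, eBayes with trend and robust settings, and all probe sets. The last were omission of the 3 arrays with opposed sex markers and omission of each array in turn. Where these omissions leave 1 array in a group, that array is assumed to vary like the others. Within-stage carrier and interaction comparisons, stage within a genotype and ERG/GATA1s against ERG Tg were added after the values had been seen.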

Additional observations from a re-analysis of the deposited data

Results flagged for a closer look

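Gata2, a partner of ETS factors in blood progenitors, had genotype differences that were unlike at the 2 stages (limma F test of the stage by genotype terms, adjusted p = 0.000992). At E14.5 its means were 8.56 in ERG/GATA1s, 6.58 in WT/GATA1s, 8.55 in ERG Tg and 6.18 in WT livers, so that ERG/GATA1s differed from WT by 2.38 ± 0.23 (adjusted p = 6.31e-05), ERG Tg by 2.37 ± 0.23 (adjusted p = 0.000198) and WT/GATA1s by 0.40 (adjusted p = 0.509). At E12.5 the means were 8.34 in ERG/GATA1s, 8.51 in WT/GATA1s, 7.22 in ERG Tg and 7.51 in WT livers, with differences from WT of 0.83 (adjusted p = 0.173), 0.995 (adjusted p = 0.0509) and -0.29 (adjusted p = 0.957). The F test passed in all 16 omissions of single arrays, with an adjusted p up to 0.00886, and failed without the 3 arrays of opposed sex markers (adjusted p = 0.111). No ETS member passed the same test.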

How the results depend on the processing

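Of the member results under all alternatives and single-array omissions, 5342 stayed on their side of the threshold, 171 lost a call and 58 gained one. A reversal that involved a call occurred in 0 results. Among the 5342, 188 were differences without a call whose sign changed. The Fli1, Spi1 and Etv6 calls in GATA1s carriers over both stages and the Spi1, Etv6 and Ets1 calls by stage held throughout; the cause was not tested where others did not. Counts of members called follow. For ERG/GATA1s against WT over both stages the 4 calls became 0 with array weights and 0 without the 3 arrays of opposed sex markers. At E14.5 its 2 calls became 1 without a filter, 0 without those 3 arrays and 0 with only the arrays compared. For ERG/GATA1s against ERG Tg, 3 calls over both stages became 0 without the 3 arrays; at E14.5, 2 calls became 4 with array weights, 0 without the 3 arrays and 0 with only the arrays compared; at E12.5, 0 became 1 with quantile normalization and 2 with only the arrays compared. WT/GATA1s against WT gained 1 with quantile normalization, over both stages and at E12.5. For stage within a genotype, 4 calls in ERG/GATA1s became 0 with array weights or without the 3 arrays, 3 in WT/GATA1s became 5 with quantile normalization, and with only the arrays compared 3 in ERG Tg became 0 and 2 in WT became 0. For GATA1s carriers, the 2 calls at E14.5 became 3 with quantile normalization or array weights, where Etv6 joined (adjusted p = 0.0411 and 0.0479), 1 without the 3 arrays and 1 with only the arrays compared; the 2 at E12.5 became 4 with quantile normalization, 1 with no filter, with median centring, with no sex term or with all probe sets, and 0 with array weights or without the 3 arrays.

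Omitting single arrays gave ranges of 0 to 5 for ERG/GATA1s against WT over both stages, 0 to 2 at E14.5 and 0 to 1 at E12.5; 2 to 3, 0 to 2 and 0 to 1 for ERG/GATA1s against ERG Tg; 3 to 4, 1 to 3 and 0 to 3 for GATA1s carriers; 0 to 1 for WT/GATA1s against WT at either stage, for ERG Tg against WT at E14.5, for the interaction at E14.5 and for the F test; 3 to 6 for stage; and, within genotypes, 0 to 5 in ERG/GATA1s, 3 to 4 in WT/GATA1s, 1 to 3 in ERG Tg and 0 to 2 in WT. Counts over all probe sets moved further: 1720 for ERG/GATA1s against WT ranged from 788 to 4048 over omissions and from 241 to 1902 over alternatives, its 1 at E12.5 from 0 to 3270 and from 0 to 319, 2938 for GATA1s carriers from 1835 to 5251 and from 1468 to 3217, and 9135 for stage from 7665 to 10575 and from 7340 to 10449. Likewise 620 for WT/GATA1s against WT ranged from 147 to 1055 and from 141 to 892, 46 for ERG Tg against WT from 5 to 134 and from 0 to 68, 204 for ERG carriers from 58 to 382 and from 4 to 254, 1467 for ERG/GATA1s against ERG Tg from 547 to 3954 and from 272 to 1598, 1489 for ERG/GATA1s against WT at E14.5 from 507 to 1959 and from 0 to 1826, 3566 for stage in ERG/GATA1s from 1217 to 6442 and from 375 to 4544, and 393 for the F test from 109 to 1055 and from 6 to 628. Labelled sex, the replicate number here, is a term of the fit, and no paired analysis beyond it was possible because the labels give no litter or replicate number.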
